A study of Mus musculus with 24 samples.

Results

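Organoids of mouse small intestine were exposed for 24 h to dFz7-21 or to the vehicle DMSO, and the 8 libraries of those groups, 4 of each, are compared here over every gene with enough reads. They were taken by their titles from the 24 libraries of the study, in which 6 groups of 4 received DMSO, dFz7-21 or Fz7-21S for 6 h or 24 h. All groups are primary organoids, self-organising cultures of intestinal epithelium, and polyadenylated RNA was purified with the RNeasy Micro kit. By the design text, dFz7-21 is a peptide that blocks the receptor Frizzled 7. Fz7-21S is known here only by its name. Dose and medium are not given in the labels, which also do not say that the replicates are separate cultures or animals, so the p-values measure only the spread between these samples and it may be technical. The question is which transcripts differ in intestinal epithelium after a day of Frizzled 7 block.

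Frizzled proteins are receptors for Wnt ligands. Ligand binding to a Frizzled and its co-receptor Lrp5 or Lrp6 stabilises beta-catenin, which enters the nucleus and activates genes together with TCF and LEF factors. In the crypts of the small intestine this signal keeps the Lgr5-positive stem cells and supports Paneth cells, and cells lose it as they move towards the villus and become absorptive or secretory.

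Total counts ran from 20.4 M to 33.1 M in the 8 libraries. A floor of 3 counts corresponds to 0.0906 to 0.147 CPM by total count alone, and genes without reads are given as 0. All other CPM values are library-size-scaled counts, TMM-normalised. The epithelial markers were high in all 8: Epcam, the epithelial adhesion molecule, stood between 1468 and 1704 CPM. The lists of immune, endothelial and glial markers summed to at most 45.4, 22.6 and 21.9 CPM in any library, and Cd4, Adgre1, Cdh5, Emcn and Sox10 had no count in any of the 8. A single library stood apart. The 20 mesenchymal markers summed to 1597 CPM in dFz7-21 replicate 3 and to between 11.8 and 20.03 CPM in the other 7, with Dcn and Lum at 0 in all 8. Col1a1, a fibrillar collagen chain, reached 395 CPM in that library against at most 0.289 CPM elsewhere, and the smooth muscle actin Acta2 reached 111.0 CPM against at most 0.145 CPM. All 7 mesenchymal markers with enough reads passed the test as higher with dFz7-21. Without that library, 1 did, the pericyte receptor Pdgfrb, which stood at 3.30, 4.86, 4.61 and 3.05 CPM with DMSO and 6.17, 9.02, 18.02 and 5.64 CPM with dFz7-21. The comparison with DMSO at 24 h was therefore recomputed without dFz7-21 replicate 3. For the comparisons with Fz7-21S and between the times, only the total counts of called genes were recomputed so. Their list and gene values, and the RPKM values, include that library.

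Of 15429 genes tested, 5537 (35.9%) differed between dFz7-21 and DMSO at an adjusted p below 0.05 (edgeR quasi-likelihood F test, Benjamini-Hochberg over all tested genes), 2804 higher (18.2%) and 2733 lower (17.7%). Most of the differences were small. The median absolute log2 fold change of the called genes was 0.41, and 3782 of them (68.3%) differed by less than 1.5-fold. At least 2-fold, 369 genes were higher (2.39%) and 371 lower (2.4%). The 2 groups did not overlap for 5923 genes (38.4% of those tested), and 4754 of these passed the test.

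Without replicate 3 the test called 5006 genes (32.4%), 2691 higher (17.4%) and 2315 lower (15%). Of the 5537 genes called with all libraries, 4588 (82.9%) were also called in the same direction, and 949 were not. The genes that rose most were touched more than those that fell most. Of the 369 genes at least 2-fold higher, 204 were still called and at least 2-fold higher without replicate 3, while 321 of the 371 at least 2-fold lower were so. The fold change of 59 called genes changed sign. Among genes with a mean log2 CPM of 2 or more that were called only with replicate 3, the 8 with the largest fold change were Vim, Lgals1, Tagln, Aebp1, Grb10, Timp3, Crip2 and Ltbp3. Vim, the intermediate filament of mesenchymal cells, was at 2.47, 2.57, 3.27 and 3.62 CPM with DMSO and 4.87, 4.79, 257 and 3.23 CPM with dFz7-21. Lgals1, a galectin, was at 7.63, 6.62, 6.98 and 8.69 CPM with DMSO and 5.54, 7.06, 187 and 4.07 CPM with dFz7-21. For both, replicate 3 alone stood high, and without it the log2 differences were 0.55 (edgeR adjusted p = 0.645) and -0.40 (adjusted p = 0.581). The call of Lgals1 was also lost without any 1 DMSO library. In a fit of the 8 libraries of the comparison alone, neither Vim nor Lgals1 passed (edgeR adjusted p = 0.099 and 0.177). In a fit of the remaining 7 libraries of the comparison alone, chosen after seeing the data, Vim passed as higher (0.54, edgeR adjusted p = 0.0358) and Lgals1 as lower (-0.42, adjusted p = 0.0436). The plot of fold changes with and without the library shows these genes as a vertical band.

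**Figure D1:**
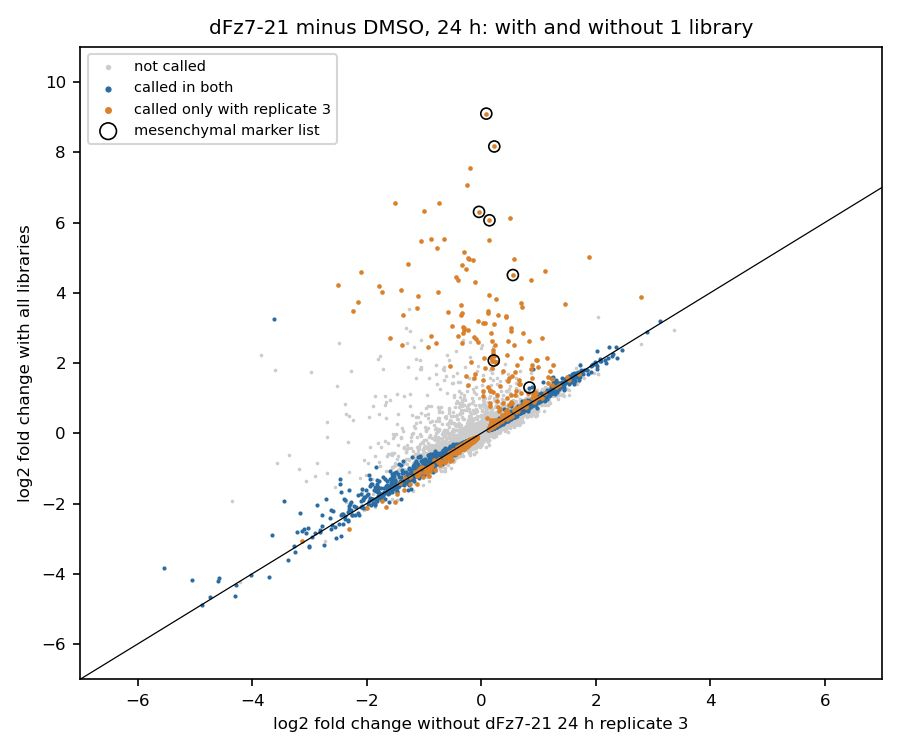
Log2 fold change of each tested gene, dFz7-21 minus DMSO at 24 h, with all libraries (y axis) against the same without dFz7-21 replicate 3 (x axis); the line marks equal values and circles mark the 7 tested mesenchymal markers. Most called genes lie on the line, while the genes called only with all libraries, in orange, include a band far above it.

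**Figure D2:**
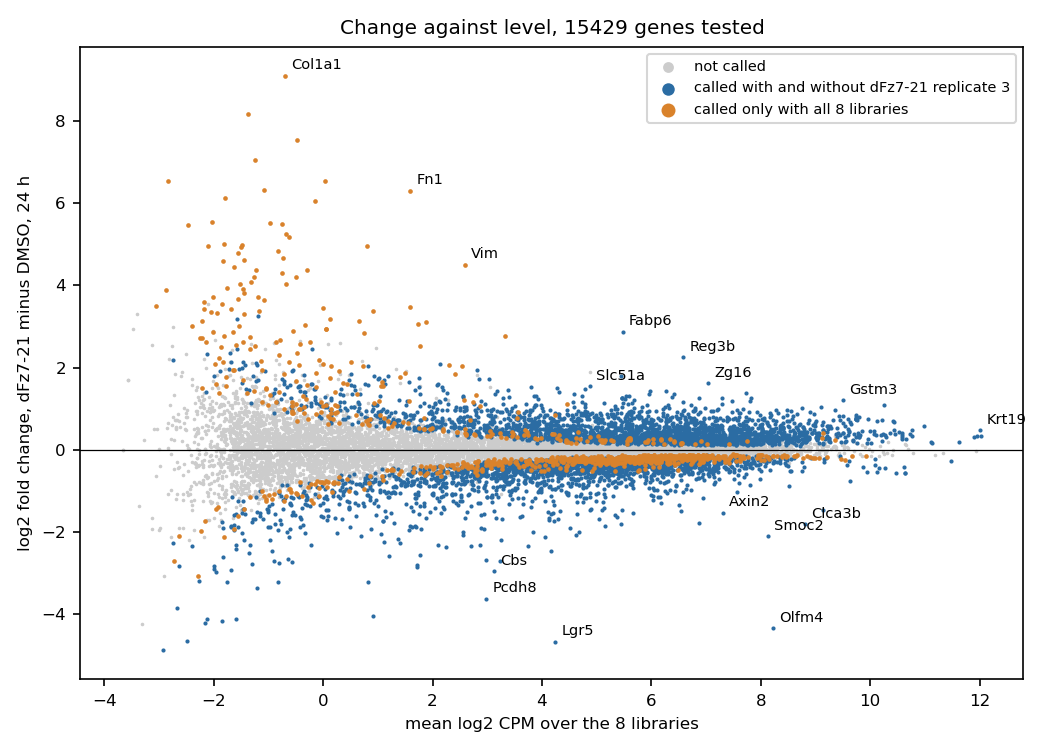
Log2 fold change (dFz7-21 minus DMSO, 24 h, y axis) of each of the 15429 tested genes against its mean log2 CPM over the 8 libraries (x axis); blue, called with and without dFz7-21 replicate 3; orange, called only with that library included. Calls are from the fit of all 24 libraries of the study. Lgr5 and Olfm4 lie lowest among the genes above a mean log2 CPM of 2, and Col1a1, in orange, lies highest of all.

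The transcriptional targets of the Wnt pathway fell almost as a whole, and some genes at its other levels, from receptors to nuclear factors, were lower. Of 15 tested receptors and co-receptors, 7 fell and 1 rose (median log2 fold change -0.40, against -0.0054 over all genes tested). Fzd7, the receptor named in the series design (chromosome 1, 59482147 to 59486955, GRCm38), stood at 49.6, 57.98, 47.3 and 53.2 CPM with DMSO and 27.5, 25.4, 40.6 and 27.3 CPM with dFz7-21. Its groups did not overlap, and replicate 3 was the highest of the treated libraries. The log2 difference was -0.78 ± 0.12 (± is the SE throughout unless an SD is named, edgeR adjusted p = 1.6e-05) and -0.94 without replicate 3. With Fz7-21S the same gene was at 49.5, 45.7, 46.1 and 31.7 CPM. In bulk RNA, fewer cells of a type and less RNA per cell cannot be told apart, here or for any gene below.

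Other Frizzled genes moved in different directions. Fzd9 and Fzd3 fell by 1.17 and 1.03 on the log2 scale (edgeR adjusted p = 0.000452 and 9e-05) at levels of 6.24 CPM or less. Ror2, a receptor for non-canonical Wnt ligands, fell by 0.40. Fzd5, a receptor of the crypt epithelium, was the 1 that rose: it was at 224, 268, 219.7 and 256 CPM with DMSO and 306, 307, 281 and 286 CPM with dFz7-21, which is a log2 difference of 0.29 ± 0.088 (adjusted p = 0.0131). Without DMSO replicate 3 that call was lost (0.24, edgeR adjusted p = 0.0538).

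Among the R-spondin receptors and the ligases that they restrain, 3 of 4 tested genes fell. Lgr5, which binds R-spondin and marks crypt base stem cells (chromosome 10, 115450314 to 115587780), stood at 80.04, 91.5, 125 and 91.9 CPM with DMSO and 4.77, 2.003, 4.41 and 4.11 CPM with dFz7-21. The treated libraries were all at 4.77 CPM or below, and every vehicle library was above them, a log2 difference of -4.67 ± 0.20 (edgeR adjusted p = 5.36e-14). Rnf43 and Znrf3, ubiquitin ligases that remove Frizzled receptors from the cell surface, differed by -1.04 ± 0.063 and -0.82 ± 0.13 on the log2 scale. Of 9 Wnt ligand and secretion genes, 3 fell: Wnt3, the ligand made by Paneth cells, by 0.80, Wls, the carrier that exports Wnt proteins, by 0.39, and Wnt9b by 1.57. The share called was near the 35.9% of all tested genes. Wls was at 63.3, 54.5, 67.4 and 59.9 CPM with DMSO and 41.8, 40.4, 63.7 and 41.6 CPM with dFz7-21, so that replicate 3 lay within the vehicle group. Without that library its log2 difference was -0.55. In a fit of the 8 libraries alone, 1 gene of the list fell and the call of Wls was lost (edgeR adjusted p = 0.109). Wnt9b had at most 1.22 CPM in any of the 8 libraries, and its groups overlapped.

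Of 5 tested extracellular inhibitors, 2 fell and 1 rose. Sfrp5, a secreted Frizzled-related protein that binds Wnt ligands, was at 4.37, 4.95, 6.50 and 6.38 CPM with DMSO and 0.820, 0.131, 0.364 and 1.11 CPM with dFz7-21. It fell by 3.21 on the log2 scale (SE 0.38, edgeR adjusted p = 5.21e-07). Apcdd1, a membrane inhibitor of the pathway and itself one of its targets, was at 14.2, 18.9, 16.6 and 13.8 CPM with DMSO and 6.07, 3.79, 4.66 and 5.50 CPM with dFz7-21, a log2 difference of -1.66 ± 0.12 (adjusted p = 2.56e-10). The groups were far apart for both genes. Notum, a secreted enzyme that inactivates Wnt proteins, was at 0.327, 0.286, 0.585 and 0.824 CPM with DMSO and 1.25, 1.18, 0.850 and 0.739 CPM with dFz7-21. Its call as higher (adjusted p = 0.0467) was at the threshold and was lost without any 1 of 5 libraries, DMSO replicates 1, 2 and 3 and dFz7-21 replicates 1 and 2.

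Inside the cell the changes were smaller. Of 13 genes of the destruction complex and Dishevelled family, 4 fell (Dvl2, Axin1, Tnks2 and Amer1, by 0.48, 0.19, 0.29 and 0.53 on the log2 scale) and 0 rose. The call of Amer1 was lost without replicate 3 (edgeR adjusted p = 0.0763). Of 11 TCF/LEF factors and co-activators, 4 fell and 0 rose. For both lists the share called was near that of all tested genes (35.9%, with 17.7% called lower). Tcf7, a TCF factor that is itself a target, was at 24.2, 30.5, 26.3 and 24.7 CPM with DMSO and 16.5, 11.6, 11.7 and 15.2 CPM with dFz7-21, a log2 difference of -0.95 ± 0.096 (edgeR adjusted p = 3.88e-08). Tle3, a co-repressor of TCF factors, fell by 0.62, and Bcl9, a beta-catenin co-activator, by 0.38.

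Of 25 tested Wnt targets, 22 fell and 3 rose (Notum, Id2 and Cdx2), with a median log2 fold change of -1.08, and 24 of them had groups that did not overlap, against 38.4% of all genes. Without replicate 3 the counts were the same, 22 and 3. Id2 and Cdx2 rose by 0.28 and 0.22, and the call of Cdx2 was lost without DMSO replicate 4. Axin2, the feedback scaffold of the destruction complex, was at 250.1, 263, 296 and 275 CPM with DMSO and 116, 77.6, 87.7 and 94.3 CPM with dFz7-21. Its log2 difference was -1.53 ± 0.11 (edgeR adjusted p = 2.06e-10). Sp5, a transcription factor that Wnt signalling induces, was at 12.8, 17.9, 17.3 and 10.9 CPM with DMSO and 2.80, 2.44, 2.55 and 3.84 CPM with dFz7-21, and Tnfrsf19, a TNF-family receptor of stem cells also called Troy, at 32.4, 39.5, 39.2 and 27.9 CPM with DMSO and 10.5, 7.32, 6.52 and 7.76 CPM with dFz7-21. These differences were -2.34 ± 0.16 and -2.12 ± 0.14. Myc, at 167, 168, 179 and 173 CPM with DMSO and 132, 114, 116 and 124 CPM with dFz7-21, fell by 0.50, a smaller step with groups as clearly apart.

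The promoters of Sp5 and Tnfrsf19 are shown because both genes fell by more than 4-fold and their windows hold a TCF/LEF core. The window runs from 250 bases before to 50 bases after the start of the gene (RefSeq, GRCm38.p6), is written 5′ to 3′ on the strand of the gene, and has the core in capitals, CTTTGAT or CTTTGAA searched on both strands. Sp5 lies at chr2:70474673-70474972 on the plus strand and Tnfrsf19 at chr14:61037938-61038237 on the minus strand.
Sp5: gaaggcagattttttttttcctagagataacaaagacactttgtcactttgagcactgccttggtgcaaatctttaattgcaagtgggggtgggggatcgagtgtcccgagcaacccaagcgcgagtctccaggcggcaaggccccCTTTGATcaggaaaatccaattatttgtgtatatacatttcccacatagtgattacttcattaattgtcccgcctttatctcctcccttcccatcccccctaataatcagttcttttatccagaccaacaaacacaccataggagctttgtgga
Tnfrsf19: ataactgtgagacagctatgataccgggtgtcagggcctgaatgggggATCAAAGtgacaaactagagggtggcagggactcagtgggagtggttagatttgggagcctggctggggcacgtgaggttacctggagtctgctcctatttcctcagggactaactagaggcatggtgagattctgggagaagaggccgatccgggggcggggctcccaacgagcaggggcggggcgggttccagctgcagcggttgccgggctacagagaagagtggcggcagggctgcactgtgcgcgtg
A match is only a description of the letters. The core occurred in 6.4% of the 14487 windows of tested genes (11334 genes matched), in 2 of 24 windows of the Wnt target list, in 7.14% of windows of genes at least 2-fold lower with and without replicate 3, and in 8.84% of windows of genes at least 2-fold higher.

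Transcripts of Lgr5-type stem cells had the lowest median of all the lists examined. Of 39 tested members, 36 fell and 3 rose, 27 fell at least 2-fold, and the median log2 fold change was -1.51. Olfm4, a secreted glycoprotein of crypt base cells (chromosome 14, 80000302 to 80023141), was at 1146, 1223, 1643 and 1458 CPM with DMSO and 87.2, 45.1, 63.1 and 76.2 CPM with dFz7-21, with no treated library above 87.2 CPM (log2 difference -4.33 ± 0.15, edgeR adjusted p = 7.79e-16). Smoc2, a matricellular protein, was at 536, 576, 644 and 581 CPM with DMSO and 148, 116, 137 and 141 CPM with dFz7-21. Its replicates lay close together within each group, and the log2 difference was -2.11 ± 0.064 (edgeR adjusted p = 5.01e-17). Genes of the list with less familiar roles fell as far. Pcdh8, a protocadherin, was at 23.6, 31.03, 32.05 and 28.6 CPM with DMSO and 4.29, 1.35, 1.22 and 2.63 CPM with dFz7-21 (log2 difference -3.62 ± 0.26). Msi1 and Mex3a, RNA-binding proteins of stem and progenitor cells, differed by -2.46 ± 0.13 and -2.20 ± 0.15, and Ptpro, a receptor phosphatase, by -2.33 ± 0.19. Clca3b, a member of the chloride channel regulator family, stood at 802, 797, 881 and 883 CPM with DMSO and 266, 227, 221 and 247 CPM with dFz7-21 and fell by 1.81.

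The 3 members that rose were Vdr, Phgdh and Fstl1. Vdr, the vitamin D receptor, was at 259.7, 277, 298 and 312 CPM with DMSO and 373, 366, 342 and 342 CPM with dFz7-21, a log2 difference of 0.31 ± 0.087. Phgdh, the first enzyme of serine synthesis, was at 24.7, 19.7, 21.8 and 20.4 CPM with DMSO and 23.9, 27.9, 23.1 and 27.8 CPM with dFz7-21, with overlapping groups, and its call (edgeR adjusted p = 0.0448) was lost without any 1 of 5 libraries, DMSO replicates 2, 3 and 4 and dFz7-21 replicates 2 and 4. Fstl1, a secreted follistatin-like protein, was high in replicate 3 alone, at 47.0 CPM, and without it the log2 difference was -2.50 (adjusted p = 0.177). Its call as higher was also lost without any 1 DMSO library, and it passed as lower in the fit of the remaining 7 libraries alone (-2.51, edgeR adjusted p = 0.00148) and without the 3 libraries of the study that hold mesenchymal transcripts (-2.52, adjusted p = 0.000186). The list is not independent of Wnt signalling, since Lgr5, Axin2, Sp5, Ascl2, Rnf43, Znrf3, Ephb2, Ephb3, Sox9, Rgmb, Tnfrsf19, Cd44 and Slc12a2 are also on the target list.

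Several of the genes that fell most are on neither the Wnt nor the stem cell lists. Cbs, which joins homocysteine and serine in the making of cysteine (chromosome 17, 31612623 to 31637233), was at 20.8, 22.7, 27.96 and 25.2 CPM with DMSO and 3.38, 2.79, 3.20 and 3.05 CPM with dFz7-21, a log2 difference of -2.96 ± 0.12 (edgeR adjusted p = 7.99e-15). No treated library came above 3.38 CPM. Cdo1, which oxidises cysteine, fell by 1.45 on the log2 scale. Other steps of sulfur metabolism rose: Cth, which releases cysteine from cystathionine, was at 211, 210.5, 209.8 and 212 CPM with DMSO and 392, 401, 364 and 406 CPM with dFz7-21, and Ethe1, a mitochondrial sulfur dioxygenase, differed by 1.15 ± 0.10. Of 16 genes of transsulfuration and the methionine cycle 6 rose and 4 fell. Pik3ap1, an adaptor of phosphoinositide 3-kinase, fell by 2.71, Angpt2, an angiopoietin, by 2.67, Vwa2, an extracellular matrix protein, by 2.36, Prelp, a leucine-rich matrix protein, by 2.33, and Kif26b, a kinesin-family protein, by 2.31.

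**Figure D3:**
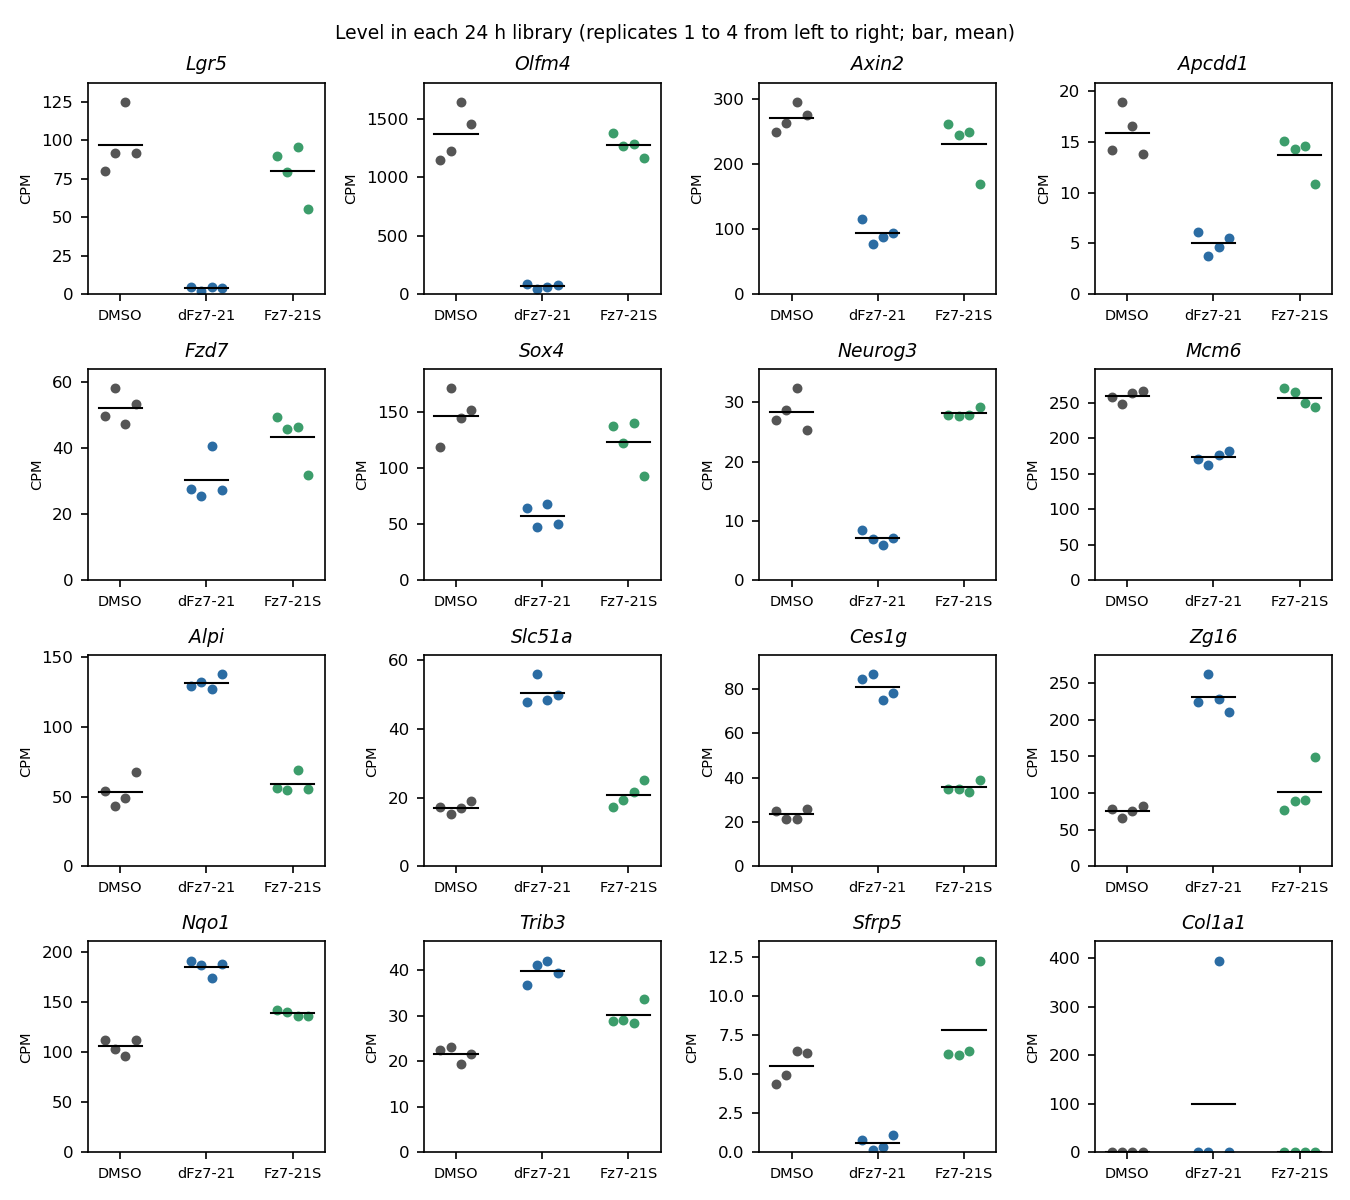
Level in CPM (linear y axis from 0) of 16 genes in each library at 24 h with DMSO, dFz7-21 and Fz7-21S, replicates 1 to 4 from left to right, with the mean as a bar. Lgr5, Olfm4, Axin2, Apcdd1, Neurog3 and Mcm6 are lower in every dFz7-21 library than in every library of the other 2 groups, Alpi, Slc51a, Ces1g and Zg16 are higher, and Col1a1 is high in dFz7-21 replicate 3 alone.

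Of 14 Eph receptors and ephrins, which position cells along the crypt, 7 fell and 4 rose. Ephb3 was at 79.1, 83.9, 93.6 and 91.4 CPM with DMSO and 34.1, 23.9, 29.7 and 31.7 CPM with dFz7-21, a log2 difference of -1.54 ± 0.079 (edgeR adjusted p = 4.29e-13), and Ephb4 and Ephb2 fell by 0.54 and 0.50. Efnb1, a ligand of EphB receptors found on cells above the crypt base, was at 137, 160.4, 127 and 134 CPM with DMSO and 181, 182, 178 and 173 CPM with dFz7-21 and rose by 0.35. In the Notch pathway 9 of 18 tested genes fell and 2 rose, or 1 without any 1 of DMSO replicates 1, 2 and 3 and dFz7-21 replicates 1, 2 and 4. Lfng, which modifies Notch with sugars, was at 39.2, 45.1, 47.6 and 39.9 CPM with DMSO and 19.2, 11.7, 13.8 and 13.8 CPM with dFz7-21 (log2 difference -1.55 ± 0.12), the ligands Dll1 and Dll4 fell by 0.86 and 0.61, and the target Hes1 by 0.45.

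BMP signalling opposes Wnt along the crypt axis, and of 10 tested BMP targets 7 rose and 1 fell (median 0.83), with 2 falling without DMSO replicate 2 or without dFz7-21 replicate 3. Smad6, an inhibitory Smad induced by BMP, was at 1.66, 1.52, 1.96 and 1.40 CPM with DMSO and 4.10, 4.70, 6.44 and 5.27 CPM with dFz7-21, a log2 difference of 1.64 ± 0.20 (edgeR adjusted p = 7.36e-07). Id1, an inhibitor of differentiation factors, was at 46.9, 46.4, 41.3 and 35.3 CPM with DMSO and 74.8, 68.2, 74.8 and 77.7 CPM with dFz7-21 and rose by 0.80. The groups did not overlap for either gene. Id3 also rose, by 1.27, but other gene models repeat its counts and its value is uncertain. The member that fell was Bambi, a decoy receptor that Wnt also induces, which fell by 1.08. Among the ligands and receptors 4 of 11 fell and 1 rose: Bmp7 and the co-receptor Rgmb fell by 1.06 and 1.78, and the ligand Bmp2 rose by 0.34 with overlapping groups, a call lost without any 1 of DMSO replicates 1 and 4 and dFz7-21 replicates 1 and 2. Of 18 genes of EGF receptor signalling 5 passed the test, a smaller share than the 35.9% of all genes. The ligands Ereg and Areg rose by 0.89 and 0.77, with 4 risers under DESeq2 and in the fit of 7 libraries, and 3 genes fell, led by Lrig1, a restraint on EGF receptors in stem cells, at -1.03 ± 0.067. Genes linked with reserve stem cells, injury and a fetal-like state moved both ways: of 19 tested, 3 rose and 6 fell, and 2 and 9 did so without replicate 3. The number that rose was 6 without dFz7-21 replicate 1 and 5 without replicate 2 or without replicate 4. Clu, a marker of revival stem cells, was at 38.4, 24.6, 26.6 and 29.99 CPM with DMSO and 11.8, 11.5, 12.5 and 11.4 CPM with dFz7-21, a log2 difference of -1.34 ± 0.12.

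Transcription factors of crypt and villus moved apart. Of 25 tested, 13 rose and 9 fell, and 11 and 8 did so without replicate 3. Besides Ascl2 (log2 difference -1.51 ± 0.18), which maintains the stem cells, Sox9, Foxa2, Foxa3 and Myb fell by 1.15, 1.16, 1.14 and 0.67. Factors known from absorptive cells were among those that rose. Nr1h4, the bile acid receptor FXR, was at 37.2, 27.5, 30.6 and 33.8 CPM with DMSO and 67.9, 76.9, 67.7 and 69.2 CPM with dFz7-21, a log2 difference of 1.12 ± 0.085 (edgeR adjusted p = 3.41e-10). Maf, Creb3l3 and Hnf4g rose by 0.92, 0.88 and 0.79.

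In the secretory lineages many transcription factors were lower, while hormone transcripts were not. Of 15 transcription factors of the secretory lineages, 9 fell and 2 rose, and of 22 enteroendocrine factors 10 fell and 2 rose. Without dFz7-21 replicate 3, 8 members of each list fell. The risers rest on single libraries: of the secretory factors 1 rose without any 1 of DMSO replicates 1 and 4 and dFz7-21 replicates 2 and 3, and of the enteroendocrine factors 1 rose without any 1 of DMSO replicates 1 and 3 and dFz7-21 replicates 2 and 3, and 0 without DMSO replicate 2. Neurog3, which starts the enteroendocrine lineage (chromosome 10, 62133090 to 62134763), was at 26.98, 28.6, 32.4 and 25.4 CPM with DMSO and 8.39, 7.01, 5.99 and 7.07 CPM with dFz7-21, a log2 difference of -1.997 ± 0.096 (edgeR adjusted p = 1.43e-13). Sox4, which acts in secretory progenitors, was at 119, 172, 145 and 152 CPM with DMSO and 64.6, 47.3, 68.1 and 50.1 CPM with dFz7-21 and fell by 1.35. Pou2f3, the factor of tuft cells, fell by 1.01. Atoh1, the master factor of all secretory cells, was at 16.4, 23.2, 20.7 and 19.9 CPM with DMSO and 18.6, 17.1, 16.4 and 14.5 CPM with dFz7-21, a log2 difference of -0.26 ± 0.098 (adjusted p = 0.0391). Its groups overlapped, and the call was lost without any 1 of 6 libraries, DMSO replicates 2, 3 and 4 and dFz7-21 replicates 2, 3 and 4. Of 24 hormone and granin genes 0 fell and 7 rose, a smaller share called than the 35.9% of all tested genes. Over all tested genes 18.2% were called higher and 17.7% lower. Pyy, a hormone of ileal L cells, was at 1.46, 0.9996, 2.82 and 2.18 CPM with DMSO and 5.98, 6.53, 7.08 and 5.50 CPM with dFz7-21, secretin (Sct) at 6.39, 5.66, 6.91 and 5.85 CPM with DMSO and 16.9, 18.6, 16.1 and 16.6 CPM with dFz7-21, and the granule protein Chga at 28.3, 23.7, 29.2 and 26.2 CPM with DMSO and 40.8, 49.6, 47.2 and 36.8 CPM with dFz7-21. Their log2 differences were 1.74 ± 0.29, 1.45 ± 0.21 and 0.70 ± 0.11.

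Goblet and Paneth products, although both secretory, went in opposite directions. Of 16 goblet cell products 10 rose and 2 fell. Zg16, a lectin of mucus granules, was at 77.9, 65.5, 74.9 and 82.3 CPM with DMSO and 225, 262, 229 and 210.5 CPM with dFz7-21, a log2 difference of 1.62 ± 0.14 (edgeR adjusted p = 4.44e-09), and Muc2, the gel-forming mucin, was at 58.3, 55.98, 73.8 and 70.1 CPM with DMSO and 157, 169.6, 126 and 128 CPM with dFz7-21 and rose by 1.17. Galnt12, an enzyme of mucin glycosylation, fell by 0.62. Of 22 Paneth cell products 16 fell and 1 rose, and 14 and 1 did so without dFz7-21 replicate 3. Lyz1, the lysozyme of Paneth granules, was at 951, 1022, 1158 and 1019 CPM with DMSO and 671, 616, 578 and 576 CPM with dFz7-21, a log2 difference of -0.76 ± 0.065. Defa21 and Defa3, antimicrobial defensins, fell by 1.13 and 1.65, though near-identical copies make single defensin genes uncertain under unique alignment. The member that rose was Guca2b, uroguanylin, which villus cells also make, at 0.82 ± 0.15. Of 22 tuft cell genes 3 rose and 2 fell, a smaller share called than the 35.9% of all tested genes. Dclk1, a kinase that marks tuft cells, was at 7.63, 5.86, 8.05 and 8.94 CPM with DMSO and 8.63, 10.1, 9.03 and 8.50 CPM with dFz7-21 and did not pass (log2 difference 0.25 ± 0.17, edgeR adjusted p = 0.281).

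Absorptive functions rose as broad sets. Of 23 brush border genes 20 rose and 0 fell, of 23 nutrient and bile acid transporters 21 rose and 0 fell, and all 20 genes of lipid absorption rose, with median log2 fold changes of 0.53, 0.67 and 0.70. Alpi, the brush border phosphatase, was at 53.9, 43.6, 49.0 and 67.8 CPM with DMSO and 129, 132, 127 and 138 CPM with dFz7-21 (log2 difference 1.29 ± 0.10, edgeR adjusted p = 7.76e-10). Akp3, another intestinal alkaline phosphatase, was at 1.37, 2.19, 2.17 and 2.76 CPM with DMSO and 7.86, 10.4, 8.14 and 9.38 CPM with dFz7-21 and differed by 2.09 ± 0.27. Enpep, an aminopeptidase, Krt20, a villus keratin, and Myo1a, the microvillus myosin, rose by 1.03, 0.85 and 0.83. Of 13 villus tip genes 9 rose and 2 fell, and 8 and 0 did so without replicate 3, with 0 or 1 falling also without DMSO replicate 1 or 4 or dFz7-21 replicate 2 or 4.

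Some of the genes that rose most are known from bile acid transport, which has no list of its own. The largest log2 fold changes of the lipid absorption and transporter lists, 2.87 and 1.56, are those of Fabp6 and Slc51a. Their rises are therefore not separate from the counts above. Fabp6, which carries bile acids through ileal cells (chromosome 11, 43596040 to 43601562), was at 16.99, 13.3, 20.01 and 15.7 CPM with DMSO and 111, 146, 122 and 106 CPM with dFz7-21. Slc51a and Slc51b, the subunits of the basolateral exporter OST, were at 17.2, 15.2, 16.9 and 19.1 CPM with DMSO and 47.97, 55.9, 48.3 and 49.8 CPM with dFz7-21, and at 13.7, 7.71, 10.8 and 13.96 CPM with DMSO and 29.6, 36.1, 30.6 and 36.0 CPM with dFz7-21. The groups did not overlap for any of them, which the rule for naming the largest rises required. The log2 differences were 2.87 ± 0.20, 1.56 ± 0.11 and 1.51 ± 0.16.

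Enzymes of fat handling rose as well. Dgat1, which makes triglyceride, was at 229, 208, 217 and 240.0 CPM with DMSO and 422, 439.6, 436 and 447 CPM with dFz7-21 and rose by 0.96, and Npc1l1, the cholesterol importer, by 0.85. All 11 tested carboxylesterases rose (median 0.96), and 10 did so without replicate 3. Ces1g was at 25.1, 21.4, 21.2 and 25.8 CPM with DMSO and 84.5, 86.6, 75.1 and 78.3 CPM with dFz7-21, a log2 difference of 1.79 ± 0.078 (edgeR adjusted p = 2.55e-14). Of 25 genes of fatty acid oxidation 23 rose and 0 fell, with smaller steps, such as 0.63 for Cpt2, the inner mitochondrial carnitine transferase, and 0.45 for Hadha of the trifunctional enzyme. Of 5 Reg lectins, 4 rose and Reg4 fell by 0.46. Reg3b, an antimicrobial lectin, was at 44.1, 41.3, 51.4 and 39.96 CPM with DMSO and 204, 241, 197 and 199.8 CPM with dFz7-21, a log2 difference of 2.25 ± 0.19. Other large rises were those of Fcgrt, the neonatal Fc receptor (1.72 ± 0.16), Car4, a membrane carbonic anhydrase (1.54 ± 0.19), Fer1l6, a ferlin (1.61 ± 0.20), and Myl7, a myosin light chain (1.57 ± 0.17).

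**Figure D4:**
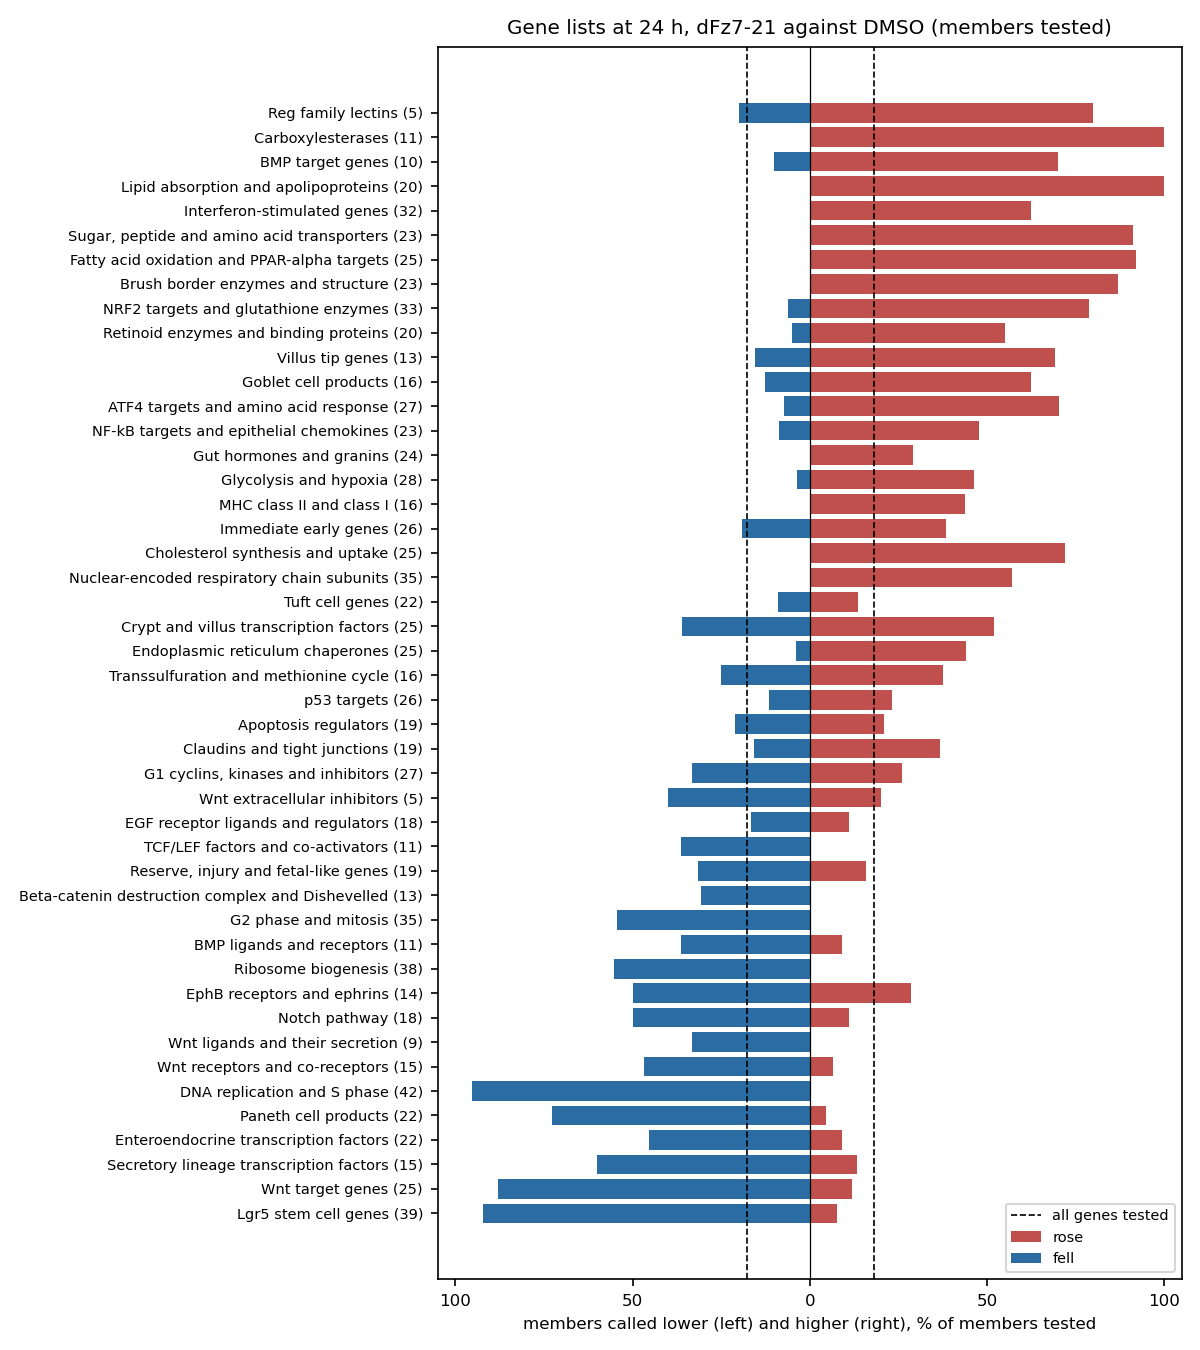
Share of the tested members of each gene list shown, called lower (bars to the left) or higher (bars to the right) with dFz7-21 at 24 h, in % of members tested, lists ordered by median fold change and followed by the number tested; dashed lines mark the shares over all genes, 17.7% lower and 18.2% higher. Cell type marker lists are left out, as is the small list of R-spondin receptors and Frizzled ligases, where 3 of 4 tested members fell. Stem cell, Wnt target and DNA replication lists reach furthest to the left, and lipid absorption and carboxylesterase lists furthest to the right.

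Compared per gene length, the largest rises in level among genes called with and without replicate 3 were those of a galectin, a keratin and an apolipoprotein, and the largest falls those of a defensin, an intelectin and Olfm4. On the RPKM scale the authors deposited, Lgals2 went from 2794 ± 185 to 4245 ± 236 RPKM (SD, n = 4), Krt19 from 2517 ± 166 to 3550.0 ± 139 and Apoa1 from 1111 ± 102 to 1792 ± 131. Gstm3, a glutathione transferase and the sixth in this order, went from 396 ± 38.01 to 924 ± 82.8. The largest falls in RPKM were those of the defensin Defa24, from 4320.0 ± 278 to 3253 ± 221, the lectin Itln1, from 1601 ± 137 to 1105 ± 93.7, and Olfm4, from 449.5 ± 75.02 to 22.6 ± 6.05. Of these 3, Olfm4 alone fell by more than 4-fold. The call of Defa24 (edgeR adjusted p = 0.0187) was lost without DMSO replicate 3 or without dFz7-21 replicate 4.

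Genes of DNA replication fell almost as a whole, by small and even steps. Of 42 tested, 40 fell and 0 rose, none by 2-fold, with a median log2 fold change of -0.45, and the groups did not overlap for 40. Mcm6, a subunit of the replicative helicase, was at 258, 248, 264 and 268 CPM with DMSO and 172, 162, 177 and 182 CPM with dFz7-21, a log2 difference of -0.58 ± 0.049 (edgeR adjusted p = 2.07e-09). Orc1, of the origin recognition complex, was at 23.3, 23.1, 22.5 and 26.5 CPM with DMSO and 13.02, 11.1, 13.6 and 12.99 CPM with dFz7-21 and fell by 0.91, and Cdc6, which loads the helicase, by 0.69. Genes of G2 and mitosis fell less: 19 of 35 with a median of -0.18, and 13 without replicate 3 or 12 without dFz7-21 replicate 1 or 2. Mki67, the proliferation antigen, was at 370.4, 410.1, 374 and 432 CPM with DMSO and 378, 359.8, 316 and 348 CPM with dFz7-21 with overlapping groups and did not pass (log2 difference -0.18 ± 0.12, adjusted p = 0.275), although it passed in a fit of the 8 libraries alone (edgeR adjusted p = 0.0277). Of 38 ribosome biogenesis genes 21 fell and 0 rose, with a median of -0.20, and 17 fell without dFz7-21 replicate 3.

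Regulators of G1 moved both ways, 7 up and 9 down of 27. The kinases Cdk6 and Cdk4 fell by 1.16 and 0.51 and Mycl, a Myc family factor, by 0.98. Cdkn2b and Cdkn1a, inhibitors of cyclin-dependent kinases, were at 59.4, 53.6, 52.4 and 51.04 CPM with DMSO and 111, 119, 118 and 110.1 CPM with dFz7-21, and at 189.5, 178, 172 and 178 CPM with DMSO and 266, 297, 359 and 263 CPM with dFz7-21. Both rose (1.08 ± 0.11 and 0.72 ± 0.076), and replicate 3 was the highest library for Cdkn1a. Among 26 p53 targets 6 rose and 3 fell, a share called near the 35.9% of all tested genes.

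Promoters of the replication list are described because its members fell together. The E2F site, TTTCCCGC or TTTGGCGC on either strand, was found in 11 of 38 windows of the replication list (28.9%) and in 2.7% of all 14487 windows. It was in 1.3% of windows of genes at least 2-fold lower, with and without replicate 3. Mcm6 (chr1:128359656-128359955 on the minus strand) and Cdc6 (chr11:98907901-98908200 on the plus strand) are shown with the sites in capitals, from the same RefSeq windows.
Mcm6: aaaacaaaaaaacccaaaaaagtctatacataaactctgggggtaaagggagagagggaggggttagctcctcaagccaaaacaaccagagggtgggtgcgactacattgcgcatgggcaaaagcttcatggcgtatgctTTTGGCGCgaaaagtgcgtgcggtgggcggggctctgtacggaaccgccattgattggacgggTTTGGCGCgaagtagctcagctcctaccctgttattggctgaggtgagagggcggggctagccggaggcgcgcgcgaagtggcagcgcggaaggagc
Cdc6: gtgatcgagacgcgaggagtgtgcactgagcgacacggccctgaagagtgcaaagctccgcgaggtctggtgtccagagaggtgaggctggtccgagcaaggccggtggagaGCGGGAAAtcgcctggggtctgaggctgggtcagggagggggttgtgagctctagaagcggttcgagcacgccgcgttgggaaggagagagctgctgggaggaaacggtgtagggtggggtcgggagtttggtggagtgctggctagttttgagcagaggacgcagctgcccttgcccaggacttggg
Both genes fell in every treated library. The letters do not show that a factor binds there, and no other search for motifs was run on this list beyond the TCF/LEF core (1 of 38 windows), the sterol element and the antioxidant element.

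The direct comparison with Fz7-21S tests where the effects of the treatments at 24 h differ. dFz7-21 differed from Fz7-21S in 5202 genes (33.7%), 2551 higher (16.5%) and 2651 lower (17.2%), by the same test. Fz7-21S differed from DMSO in 40 genes (0.259%), all higher, with 3673 genes at an unadjusted p below 0.05. This comparison and the one with DMSO share the dFz7-21 libraries. A single library of Fz7-21S, replicate 4, stood apart from its group. Without it the direct comparison called 5835 genes (37.8%), and Fz7-21S differed from DMSO in 44 genes (0.285%).

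For stem cell and Wnt genes the difference from Fz7-21S was about as large as that from DMSO. Of 39 stem cell genes 35 fell and 2 rose against Fz7-21S, with a median of -1.36 (-1.40 without Fz7-21S replicate 4), and of 25 Wnt targets 22 fell and 1 rose (median -0.99, and -1.06 without that library). Lgr5 stood at 90.1, 79.6, 95.97 and 55.1 CPM with Fz7-21S, all above 50 CPM, against 4.77 CPM or less with dFz7-21, and the log2 difference was -4.39 (edgeR adjusted p = 2.14e-13). Sfrp5 differed by -3.71 and Cbs by -2.89. Absorptive sets were also higher than with Fz7-21S: 21 of 23 brush border genes, 21 of 23 transporters and 14 of 20 lipid genes passed as higher, and 39 of 42 replication genes were lower.

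Targets of the stress factors ATF4 and NRF2 were higher than in DMSO with dFz7-21 and, in part, with Fz7-21S. Of 27 ATF4 targets, the genes of the amino acid response, 19 rose and 2 fell with dFz7-21 against DMSO, and 14 rose with Fz7-21S against DMSO, with medians of 0.35 and 0.35. Without Fz7-21S replicate 4, 16 rose with Fz7-21S and the median was 0.23. In the direct comparison, 6 were higher and 5 lower with dFz7-21 (median 0.051), and 10 and 5 without Fz7-21S replicate 4 (median 0.10). Trib3, a pseudokinase induced by ATF4, was at 22.5, 23.1, 19.4 and 21.5 CPM with DMSO and 36.7, 41.1, 42.1 and 39.3 CPM with dFz7-21, and at 28.9, 29.2, 28.4 and 33.7 CPM with Fz7-21S. Cth, on this list too, was at 265, 273, 273 and 286 CPM with Fz7-21S. For both genes the Fz7-21S libraries lay between the other groups, and their log2 differences between the treatments were 0.41 and 0.51 (edgeR adjusted p = 0.0004 and 2.99e-08). For Phgdh the difference between the treatments was -0.27 (adjusted p = 0.0252).

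NRF2 controls the antioxidant response. Of 33 of its targets tested, 26 rose and 2 fell against DMSO (median 0.52), 10 rose with Fz7-21S against DMSO (median 0.32, or 12 and 0.19 without Fz7-21S replicate 4), and 18 were higher and 2 lower in the direct comparison (median 0.29), or 25 and 2 without Fz7-21S replicate 4 (median 0.34). Cbr3, a carbonyl reductase, was at 40.4, 38.03, 33.6 and 43.5 CPM with DMSO and 101, 103, 97.8 and 99.4 CPM with dFz7-21, and at 62.5, 72.1, 72.0 and 102 CPM with Fz7-21S. Nqo1, a quinone reductase, was at 112, 103, 96.5 and 112 CPM with DMSO and 192, 187, 174 and 188 CPM with dFz7-21, and at 142, 140.5, 136 and 136 CPM with Fz7-21S. Gpx2, a glutathione peroxidase of crypt cells, went the other way and fell by 0.51. An antioxidant element, TGACNNNGC on either strand, was in 33.3% of windows of this list and in 14.2% of all windows. Ugdh, which makes UDP-glucuronate and rose by 0.66, is shown (chr5:65435793-65436092 on the minus strand) because its window holds 2.
Ugdh: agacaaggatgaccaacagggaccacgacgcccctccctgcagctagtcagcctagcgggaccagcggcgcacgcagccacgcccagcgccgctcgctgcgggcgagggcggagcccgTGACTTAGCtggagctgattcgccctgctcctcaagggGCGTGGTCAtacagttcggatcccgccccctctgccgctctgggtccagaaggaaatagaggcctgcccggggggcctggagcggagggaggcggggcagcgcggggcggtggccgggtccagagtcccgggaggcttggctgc
The list includes genes with a match that did not rise, such as Abcc4, a transporter that fell by 1.05.

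Respiratory chain and cholesterol genes rose by small steps. Of 35 nuclear-encoded subunits, 20 rose and 0 fell with dFz7-21 against DMSO (median 0.24). In fits of the 8 libraries alone and of the 7 without dFz7-21 replicate 3, 31 and 34 rose. Against Fz7-21S 4 were higher, and 28 were higher when Fz7-21S replicate 4 was left out, so that library decides the count. Cyc1, of complex III, was at 503, 502, 502 and 486 CPM with DMSO and 607, 608, 599 and 651 CPM with dFz7-21, and at 493, 502, 538 and 545 CPM with Fz7-21S. Cholesterol synthesis genes rose in 18 of 25 cases against DMSO and in 19 against Fz7-21S, with 0 falling in either comparison. Of 28 glycolysis and hypoxia genes 13 rose and 1 fell, and 9 and 1 did so without dFz7-21 replicate 3. Of 25 endoplasmic reticulum chaperones 11 rose, led by P4hb, a disulfide isomerase, at 0.48 ± 0.049, and 1 fell. The call of that faller was lost without any 1 of DMSO replicates 3 and 4 and dFz7-21 replicates 2, 3 and 4. Hmgcs1, which makes the precursor of mevalonate, was at 649, 650.0, 593 and 630.5 CPM with DMSO and 834, 905, 792 and 829.5 CPM with dFz7-21, a log2 difference of 0.41 ± 0.058.

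**Figure D5:**
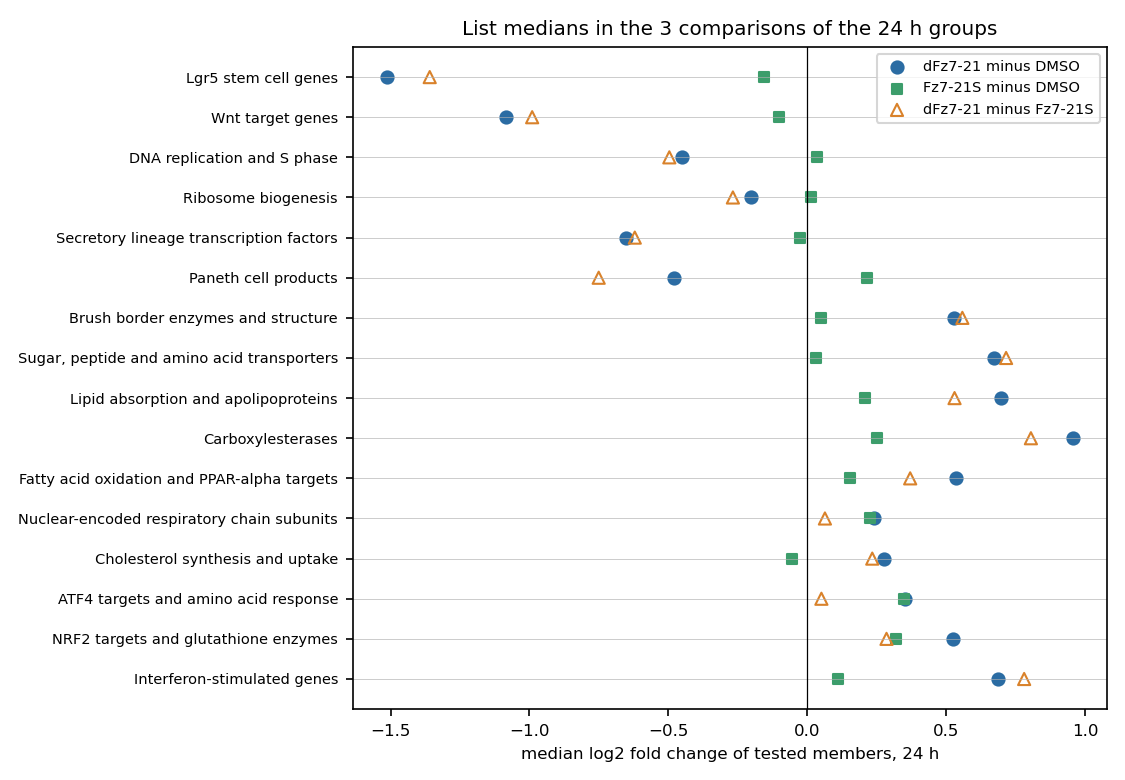
Median log2 fold change of the tested members of 16 lists at 24 h (x axis) for dFz7-21 minus DMSO (blue circles), Fz7-21S minus DMSO (green squares) and dFz7-21 minus Fz7-21S (open triangles); the comparisons share libraries. Circle and triangle lie together for stem cell, Wnt target and brush border lists, and circle and square lie together for ATF4 targets and respiratory chain subunits only while Fz7-21S replicate 4 is included: without it the squares move to 0.23 and 0.056.

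Genes of innate immunity were higher in part. Of 32 interferon-stimulated genes 20 rose and 0 fell, and 15 rose without replicate 3. Oasl2, related to the oligoadenylate synthetases, was at 4.52, 2.05, 4.30 and 5.27 CPM with DMSO and 11.7, 15.6, 14.7 and 11.6 CPM with dFz7-21, and Ddx60, a helicase of antiviral defence, at 3.80, 0.857, 3.13 and 3.21 CPM with DMSO and 7.62, 10.7, 6.84 and 7.35 CPM with dFz7-21. DMSO replicate 2 was the lowest library for both, and the log2 differences were 1.72 ± 0.26 and 1.53 ± 0.29 (edgeR adjusted p = 1.38e-05 and 0.000233). Irf7, the regulator of interferon genes, was steadier, at 21.5, 21.5, 21.1 and 20.1 CPM with DMSO and 38.5, 36.9, 37.1 and 35.8 CPM with dFz7-21, and rose by 0.82. Of 23 NF-kB targets and chemokines 11 rose and 2 fell, and 10 and 0 did so without replicate 3, with 0 or 1 falling also without DMSO replicate 3 or 4 or dFz7-21 replicate 1 or 4. Nos2, the inducible nitric oxide synthase, was at 19.4, 17.04, 18.4 and 20.4 CPM with DMSO and 36.5, 46.3, 40.8 and 38.7 CPM with dFz7-21 (log2 difference 1.11 ± 0.083), and Ccl25, the chemokine of small-intestinal epithelium, rose by 0.80. Of 16 antigen presentation genes 7 rose and 0 fell. The 17 immune cell markers summed to 34.4 to 45.4 CPM with DMSO and to 27.9 to 33.0 CPM with dFz7-21, with Cd4 and Adgre1 at 0 in all 8. Most of each sum was Kit, at 27.0 to 37.1 CPM with DMSO and 16.4 to 22.1 CPM with dFz7-21. Itgam went the other way, at 4.52 to 6.01 CPM with DMSO and 8.97 to 9.40 CPM with dFz7-21. Of the 5 immune markers tested, 1 rose and 1 fell.

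Of 19 claudins and tight junction genes 7 rose and 3 fell, against 35.9% called over all tested genes. Of those 3, 2 fell at least 2-fold and Cldn2 fell least. The lowest log2 fold change of the list was -1.16. Cldn3 and Cldn15, claudins of tight junctions, rose by 0.53 and 0.48, while Cldn2, a claudin of the crypt, was at 406, 402, 401 and 391 CPM with DMSO and 315, 322, 286 and 309 CPM with dFz7-21 and fell by 0.38. Of 20 retinoid genes 11 rose and 1 fell, with Rbp7, a retinol-binding protein, at 1.41 ± 0.18 on the log2 scale. Of 19 apoptosis regulators 4 rose and 4 fell, a share called near the 35.9% of all tested genes. Bcl2, an inhibitor of cell death, was at 19.2, 22.1, 22.6 and 23.1 CPM with DMSO and 12.1, 12.1, 9.39 and 11.1 CPM with dFz7-21, a log2 difference of -0.96 ± 0.15. Of 26 immediate early genes 10 rose, led by the stress factor Atf3 at 0.85 ± 0.12, and 5 fell, among them the nuclear receptor Nr4a2 at -1.01 ± 0.16. The number that fell was 3 without any 1 of DMSO replicate 4 and dFz7-21 replicates 1 and 4.

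The change of the dFz7-21 difference between 6 h and 24 h was tested as an interaction. At 6 h dFz7-21 differed from the 6 h vehicle in 1704 genes (11%), 933 higher (6.05%) and 771 lower (5%). The interaction was called for 2029 genes (13.2%). Of the stem cell list 27 of 39 changed between the times, and of the transporters 19 of 23. Olfm4 had a log2 difference of -0.30 at 6 h (edgeR adjusted p = 0.146) and -4.33 ± 0.15 at 24 h, and Clca3b one of 0.17 and -1.81 ± 0.086. Among replication genes, 39 of 42 were already lower at 6 h, with a median of -0.44 against -0.45 at 24 h, and 3 changed between the times. Cholesterol genes changed in 0 of 25 cases. BMP targets had their larger median at 6 h, 1.35 against 0.83, with Id1 at 1.47 and 0.80 ± 0.13 (interaction adjusted p = 0.0164). Mesenchymal transcripts were also present in 2 libraries of the 6 h vehicle, replicates 1 and 2, where the 20 markers summed to 342 and 311 CPM, and without these 2 libraries and dFz7-21 24 h replicate 3 the interaction was called for 1614 genes.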

How the data were processed

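RNA-seq of the 24 libraries was deposited per sample as a count per gene model, the number of uniquely aligned reads, and as an RPKM adjusted by a size factor, both made by the authors, per the file headers. The aligner GSNAP and the build GRCm38 appear in the submitters' processing notes. The sources used here do not give annotation, strand setting or versions, so overlapping and antisense genes cannot be separated, and near-identical copies lose reads under unique alignment. Gene symbols came from RefSeq (31049 IDs) and GENCODE (78), and 5401 of 36528 IDs had none.

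Counts were fitted in R 4.3.3 with edgeR 4.0.16 (TMM factors, filterByExpr, robust quasi-likelihood F test, 1 coefficient for each of 6 groups, all 24 libraries, no covariate), with Benjamini-Hochberg adjustment over 15429 genes and a threshold of 0.05. Levels are TMM-normalised CPM. RPKM values, as the authors deposited them, were used to rank changes in level between the groups among genes called from the counts, and for no test. DESeq2 1.42.0 was an alternative. The fit was tested on simulated data with known changes.

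The comparison, its members and the 52 gene lists were chosen with earlier results of these data known, so lists are described by counts and medians without a test of their own. Named genes were the 15 largest rises and the 15 largest falls among genes called with and without dFz7-21 replicate 3, not overlapping and at a mean log2 CPM of 2 or more; the 6 with the largest rise and the 6 with the largest fall in RPKM; 17 chosen genes, among them Lgr5, Mki67 and Atoh1, whatever their result; of each list, up to 4 risers and 4 fallers with the smallest p; and the 8 called only with replicate 3. Cd44, Slc12a2 and the markers of other cell types were named after their values were seen. Replicates differed by more than counting noise, and no library was a copy of another. The SEs come from the quasi-likelihood fit and include the spread between libraries, while the floor covers counting error only.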

Additional observations from a re-analysis of the deposited data

Results flagged for a closer look

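A library far from the other 3 of its group, by Dixon's gap ratio at its 95% critical value, was found in 30 of 320 group tests over 160 genes named in the report, where chance alone flags about 1 group in 20. The count is no test of that rate, since several of the genes were named because dFz7-21 replicate 3 stood apart for them. Of these, dFz7-21 replicate 3 was the highest of its group for Acta2 (111 CPM), Aebp1 (60.0 CPM), Col1a1 (395 CPM), Crip2 (27.0 CPM), Fstl1 (47.0 CPM), Fzd7 (40.6 CPM), Grb10 (43.2 CPM), Lgals1 (187 CPM), Ltbp3 (28.1 CPM), Tagln (44.6 CPM), Timp3 (31.8 CPM), Vim (257 CPM) and Wls (63.7 CPM), and the lowest for Epcam (1550 CPM). Among the other dFz7-21 libraries, replicate 1 was the highest for Bcl9 (29.9 CPM), Defa21 (57.0 CPM) and Defa24 (1490 CPM), replicate 2 for Ereg (39.8 CPM), Nr1h4 (76.9 CPM) and Reg3b (241 CPM) and replicate 4 for Cyc1 (651 CPM), while replicate 2 was the lowest for Vwa2 (1.74 CPM) and replicate 4 for Wnt3 (8.23 CPM). With DMSO, replicate 1 was the lowest for Amer1 (17.9 CPM), Ephb4 (189 CPM) and Sox9 (92.9 CPM), replicate 2 for Pou2f3 (3.62 CPM) and replicate 4 for Cyc1 (486 CPM) and Id3 (23.0 CPM), and replicate 4 was the highest for Tagln (3.91 CPM).

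The dFz7-21 difference changed between 6 h and 24 h for 2029 genes by the interaction test (edgeR, adjusted p below 0.05). In log2 units, 24 h minus 6 h, the change was -4.03 for Olfm4, -2.61 for Lgr5, -1.17 for Axin2, -0.905 for Smoc2, -0.865 for Sp5, -0.824 for Fzd7, -0.796 for Lyz1 and -0.344 for Myc. It was 1.13 for Alpi, 0.72 for Muc2 and 0.61 for Chga.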

How the results depend on the processing

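Each count of called genes stayed within 1.5 times its value, whether for dFz7-21 against DMSO, against Fz7-21S or between the times, under every alternative run. For the 5537 genes against DMSO the count was 5442 with size factors from relative log expression, 4937 without the filter on low counts, 5843 with DESeq2, 6363 in a fit of the 8 libraries alone, 6427 in such a fit without dFz7-21 replicate 3 (chosen after seeing the data) and 4885 without the 3 libraries that hold mesenchymal transcripts. Leaving out each library in turn gave 4770 to 5110 genes, 645 to 825 at 2-fold or more, 4272 to 5835 against Fz7-21S and 1674 to 1932 for the interaction. Genes at least 2-fold higher numbered 229 without the 3 libraries, 222 in the fit of 8 and 219 in the fit of 7, against 369. The sign turned for 3 named genes, Aebp1 (-0.17, -0.20 and -0.19), Lgals1 (-0.40, -0.43 and -0.42) and Fstl1 (-2.50, -2.52 and -2.51), without replicate 3, without the 3 libraries and in the fit of 7; with each library left out in turn they ranged from -0.17 to 2.38, -0.40 to 3.15 and -2.50 to 4.62. Fstl1 passed as lower without the 3 libraries and in the fit of 7, and Lgals1 in the fit of 7. Counts of list members that moved by over 1.5 times under other fits include the destruction complex genes that fell (4, and 7 in the fit of 8) and p53 targets that fell (3, and 7 in the fit of 7). Under DESeq2 the 164 named genes with a value kept their direction and side of the threshold. The median log2 fold change of all genes moved by at most 0.0193 from 0.

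With the replicate number as a block the counts were 5468 against DMSO, 659 at 2-fold or more, 5177 against Fz7-21S and 1947 for the interaction, and the calls of 8 of 165 named genes were lost, mesenchymal genes with Fstl1 among them. The number does not pair the samples: deviations of same-numbered libraries correlated at -0.0346 to 0.0161, below the limit of 0.1.

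Depth limits genes near the floor of 3 counts, 0.0906 to 0.147 CPM.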
